A study of Mus musculus with 6 samples.

Results

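The Hox genes of the mouse were followed in newborn kidney. The members were all genes whose symbol is Hoxa, Hoxb, Hoxc or Hoxd followed by a number, named through the RefSeq accession of each probe. This gave 39 genes, read by 43 probes, among 32451 genes or unnamed transcripts on the array, and 33 of the 39 were bright enough to enter the comparison of genotypes beside 21207 features in all. Cy3-labelled RNA from kidney tissue was read on Agilent arrays of a single colour, with 3 arrays labelled Usp10 knockout (KO) and 3 labelled wild type (WT). Usp10 encodes a deubiquitinating enzyme. All newborns were taken about 6 hours after birth and are labelled male, and the design text describes separate newborns within each genotype. The sources used here do not give the strain, the design of the knockout allele or any Cre driver.

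Hox genes encode homeodomain transcription factors and lie in 4 chromosomal clusters, where their order matches the order of their expression along the body from head to tail. Genes of the same number in different clusters are called paralogues and often act together. In the mouse kidney the genes of paralogue group 11 (Hoxa11, Hoxc11 and Hoxd11) are needed for the ureteric bud to form and for Gdnf and Six2 to be expressed in the mesenchyme around it, those of group 10 pattern the stroma, and Hoxb7 marks the Wolffian duct and its branches. Genes of group 13 act at the tail end of the embryo, in the hindgut, genitalia and digits, and Hoxb1 acts in the hindbrain.

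Several checks of the arrays bear on the results. The probe for Usp10 read 3.64, 3.37 and 3.56 on the KO arrays, against 3.01, 3.13 and 2.95 on the WT arrays, so it was higher on the arrays labelled KO, and the groups did not overlap (log2 difference 0.49 ± 0.16 (SE), limma adjusted p = 0.416). The labels do not say what the allele deletes, so whether the probe checks the knockout is unknown, and groups are called by their labels. WT replicate 2 gave no signal well above background for Uty, Ddx3y or Eif2s3y, all Y-linked. Xist was well above background on WT replicates 1 and 2 although all samples are labelled male. On WT replicate 1 Uty, Ddx3y and Eif2s3y were well above background too. The largest differences are therefore also given against WT replicate 3 alone. By scan time in the file headers the arrays formed 2 batches. Scan batch 2 held KO replicate 3 and WT replicate 1, and scan batch 1 the other 4 arrays. The share of spots well above background lay between 64.4% and 73.9%, with 0 saturated. All 8 nephron epithelium markers were well above background on every array, and so were 2 of 7 skeletal muscle markers (Acta1 and Myh3), 3 of 6 adrenal markers (Nr5a1, Cyp21a1 and Th) and 2 of 5 neuronal markers (Stmn2 and Elavl4). Above background on no array were 3 muscle, 1 adrenal and 3 neuronal markers, and the summed level of each of these 3 lists was under 1, in units of the array's 75th percentile, on every array. Precision is limited by having 3 arrays in a group.

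Most Hox genes gave a signal in newborn kidney. Of the 39 genes, 32 were well above background on all 6 arrays, 3 on some arrays and 4 on none. Every member of paralogue groups 2 to 7 and 9 to 11 was above background on all 6 arrays, as were Hoxb8 and Hoxd8. At the head end of the clusters Hoxd1 was above background on all arrays, and Hoxb1 on none. At the tail end, no gene of group 13 was well above background on all 6 arrays. Hoxa13, Hoxb13 and Hoxd13 were above background on no array, and Hoxc13 was above it on 0 of 3 KO arrays and 2 of 3 WT arrays. In group 12, Hoxc12 was above background on all 6 arrays, and Hoxd12 on 1 of 3 KO arrays and 3 of 3 WT arrays. Hoxc8, a gene of the thoracic region, was above background on 1 of 3 KO arrays and 2 of 3 WT arrays. By cluster the genes above background on all arrays were 10 of 11 in Hoxa on chromosome 6, 8 of 10 in Hoxb on chromosome 11, 7 of 9 in Hoxc on chromosome 15 and 7 of 9 in Hoxd on chromosome 2. With the scanner's less strict flag for a signal above background the count on all 6 arrays was 33. By that flag Hoxd12 was above background on all 6 arrays, Hoxc8 on 5, Hoxa13 on 4 and Hoxc13 on 3. Hoxb1, Hoxb13 and Hoxd13 were above it on none by either flag. Elsewhere, above background refers to the stricter flag. In whole tissue a gene on in few cells and a gene weakly on in many cannot be told apart, and a probe that binds poorly can miss a transcript.

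**Figure D1:**
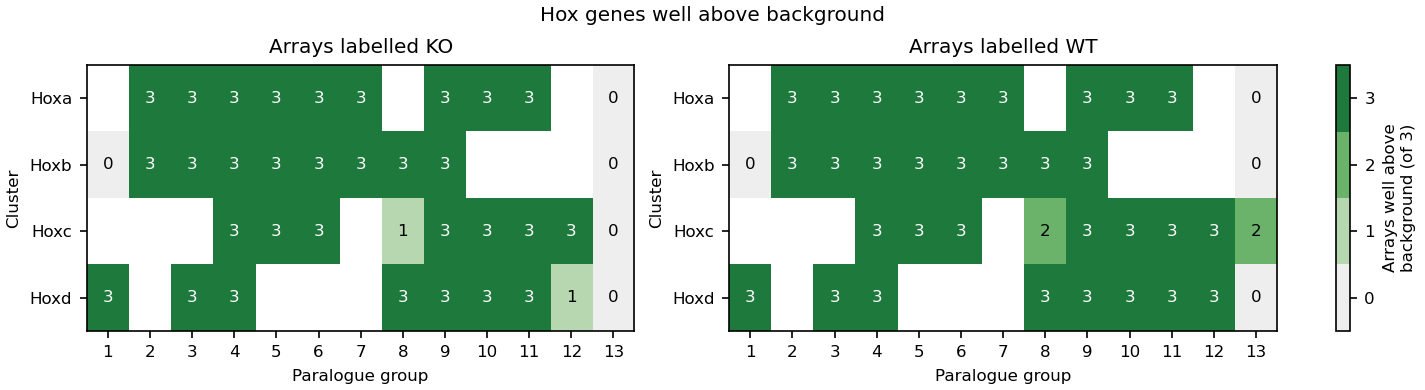
Number of arrays (of 3 in each group) on which each Hox gene was well above background, by cluster (rows) and paralogue group (columns), with KO arrays on the left and WT arrays on the right; blank squares have no gene or none shown. The green field runs through groups 2 to 11 with a gap at Hoxc8, and the last column holds a value above 0 only for Hoxc13 on WT arrays.

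The end of the signal, by the stricter flag, fell between neighbouring genes in the Hoxa, Hoxb and Hoxd clusters. For Hoxa and Hoxd the promoter windows on either side of it are printed for that reason. RefSeq gave no window for Hoxb9 or Hoxb13, the genes on either side in Hoxb. That of Hoxd3, the member with the smallest p in the comparison of genotypes, is printed too. Each is the 250 bases before the annotated start, from RefSeq on GRCm38.p6, 5′ to 3′ on the strand of the gene, and CG dinucleotides are in capitals. The array design names the build mm9, so these coordinates belong to the sequences alone. The windows of Hoxa11, which was above background on all 6 arrays, of Hoxa13, which was above it on none, of Hoxd3, of Hoxd12 and of Hoxd13 are as follows.
Hoxa11, chr6:52245811-52246060, minus strand: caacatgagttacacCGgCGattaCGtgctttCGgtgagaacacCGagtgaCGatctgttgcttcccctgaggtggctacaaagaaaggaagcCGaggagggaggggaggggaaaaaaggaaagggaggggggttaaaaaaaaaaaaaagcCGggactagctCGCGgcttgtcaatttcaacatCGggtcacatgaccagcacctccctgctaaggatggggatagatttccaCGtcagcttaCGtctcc
Hoxa13, chr6:52260881-52261130, minus strand: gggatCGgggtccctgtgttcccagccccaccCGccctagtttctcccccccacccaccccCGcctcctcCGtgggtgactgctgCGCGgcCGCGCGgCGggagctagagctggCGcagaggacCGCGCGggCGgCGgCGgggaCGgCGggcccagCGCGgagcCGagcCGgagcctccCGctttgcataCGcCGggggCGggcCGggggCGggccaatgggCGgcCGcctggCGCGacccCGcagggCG
Hoxd3, chr2:74711743-74711992, plus strand: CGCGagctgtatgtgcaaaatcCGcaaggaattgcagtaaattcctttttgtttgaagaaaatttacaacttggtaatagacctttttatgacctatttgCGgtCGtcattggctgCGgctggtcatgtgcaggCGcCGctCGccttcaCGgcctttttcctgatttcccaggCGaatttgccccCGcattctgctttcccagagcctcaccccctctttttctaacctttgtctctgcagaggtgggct
Hoxd12, chr2:74674763-74675012, plus strand: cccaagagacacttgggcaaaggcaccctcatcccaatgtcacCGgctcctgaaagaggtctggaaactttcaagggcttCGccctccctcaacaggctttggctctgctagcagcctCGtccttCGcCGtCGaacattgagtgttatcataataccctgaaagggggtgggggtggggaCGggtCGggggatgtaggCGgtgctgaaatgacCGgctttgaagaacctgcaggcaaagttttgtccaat
Hoxd13, chr2:74667975-74668224, plus strand: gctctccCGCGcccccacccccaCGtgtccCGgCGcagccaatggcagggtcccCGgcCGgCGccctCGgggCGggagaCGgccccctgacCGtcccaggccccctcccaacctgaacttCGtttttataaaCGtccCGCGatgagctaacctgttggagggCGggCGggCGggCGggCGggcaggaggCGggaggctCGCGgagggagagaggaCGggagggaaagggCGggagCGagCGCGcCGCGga

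CG counts did not fully separate genes above background on all 6 arrays from those above it on none, and only 3 windows belonged to the latter. The median of those 3 was 31.0. It was 12.5 for the 20 windows of genes above background on all 6 arrays, where the highest count was 28. Hoxa13 held 35 CG dinucleotides and Hoxd13 held 31, against 13 for Hoxa11, 12 for Hoxd3 and 10 for Hoxd12. The window of Hoxb1, without signal, held 7, while those of Hoxa5, Hoxa6 and Hoxd1, above background on all 6 arrays, held 28, 24 and 24. RefSeq gave 24 windows for 22 of the 39 Hox genes, with a median of 12.5 CG dinucleotides, against 6.0 over all 32851 promoter windows of the table. The motif CCAAT, searched on both strands, was in 14 of the 24 Hox windows (58.3%) and in 33.8% of all windows. TATAAA was in 16.7% of Hox windows and 12.4% of all, and TGATNNAT, letters of the joint Hox and Pbx site, was in 16.7% and 7.68%. All 3 motifs were searched on both strands, matches of different motifs may overlap, and a match describes the sequence alone.

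Levels are given as log2 of the processed signal minus the 75th percentile of the array. Probes differ in how well they bind, so a level can be compared between arrays for the same gene, and not between genes. Values are mean ± SD with n = 3 in each group. In the head part of the clusters, Hoxd1 stood at -3.93 ± 0.51 on KO arrays and -4.19 ± 0.28 on WT arrays. Hoxb2, a gene of the hindbrain and neck region, stood at 1.99 ± 0.26 on KO arrays and 2.20 ± 0.27 on WT arrays. In group 3, Hoxa3, known for its part in thymus and parathyroid formation, stood at 1.83 ± 0.15 on KO arrays and 1.70 ± 0.20 on WT arrays, and Hoxb3 at 1.44 ± 0.05 on KO arrays and 1.45 ± 0.15 on WT arrays. For each of these 4 genes the means of the groups lay closer together than their arrays were spread. Group 4 was read at -4.42 ± 0.09 on KO arrays and -4.61 ± 0.05 on WT arrays for Hoxa4, the narrowest spread of the Hoxa cluster over all 6 arrays, and at 1.55 ± 0.11 on KO arrays and 1.42 ± 0.20 on WT arrays for Hoxc4.

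In the middle of the clusters, Hoxa5, known for its part in lung development, stood at -3.22 ± 0.16 on KO arrays and -3.39 ± 0.21 on WT arrays. Hoxb5 stood at 0.42 ± 0.17 on KO arrays and 0.46 ± 0.24 on WT arrays, and Hoxc5 at -3.05 ± 0.36 on KO arrays and -3.12 ± 0.47 on WT arrays. Hoxb6 was at -0.07 ± 0.36 on KO arrays and -0.01 ± 0.22 on WT arrays. None of these 4 separated the groups. Hoxb7 stood at 1.91 ± 0.19 on KO arrays and 1.86 ± 0.20 on WT arrays, and Hoxd8 at 2.43 ± 0.18 on KO arrays and 2.43 ± 0.14 on WT arrays. The largest spread within groups among the tested genes of the Hoxb cluster was that of Hoxb8. It read -0.00, 1.32 and 0.52 on the KO arrays, against 0.58, 1.23 and -0.08 on the WT arrays. KO replicate 2 and WT replicate 2 were the high arrays and KO replicate 1 and WT replicate 3 the low ones, so the groups overlapped. In group 9, Hoxa9 stood at 1.76 ± 0.24 on KO arrays and 1.55 ± 0.03 on WT arrays, Hoxb9 at -0.80 ± 0.35 on KO arrays and -0.90 ± 0.36 on WT arrays and Hoxd9 at -0.76 ± 0.27 on KO arrays and -0.99 ± 0.22 on WT arrays.

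**Figure D2:**
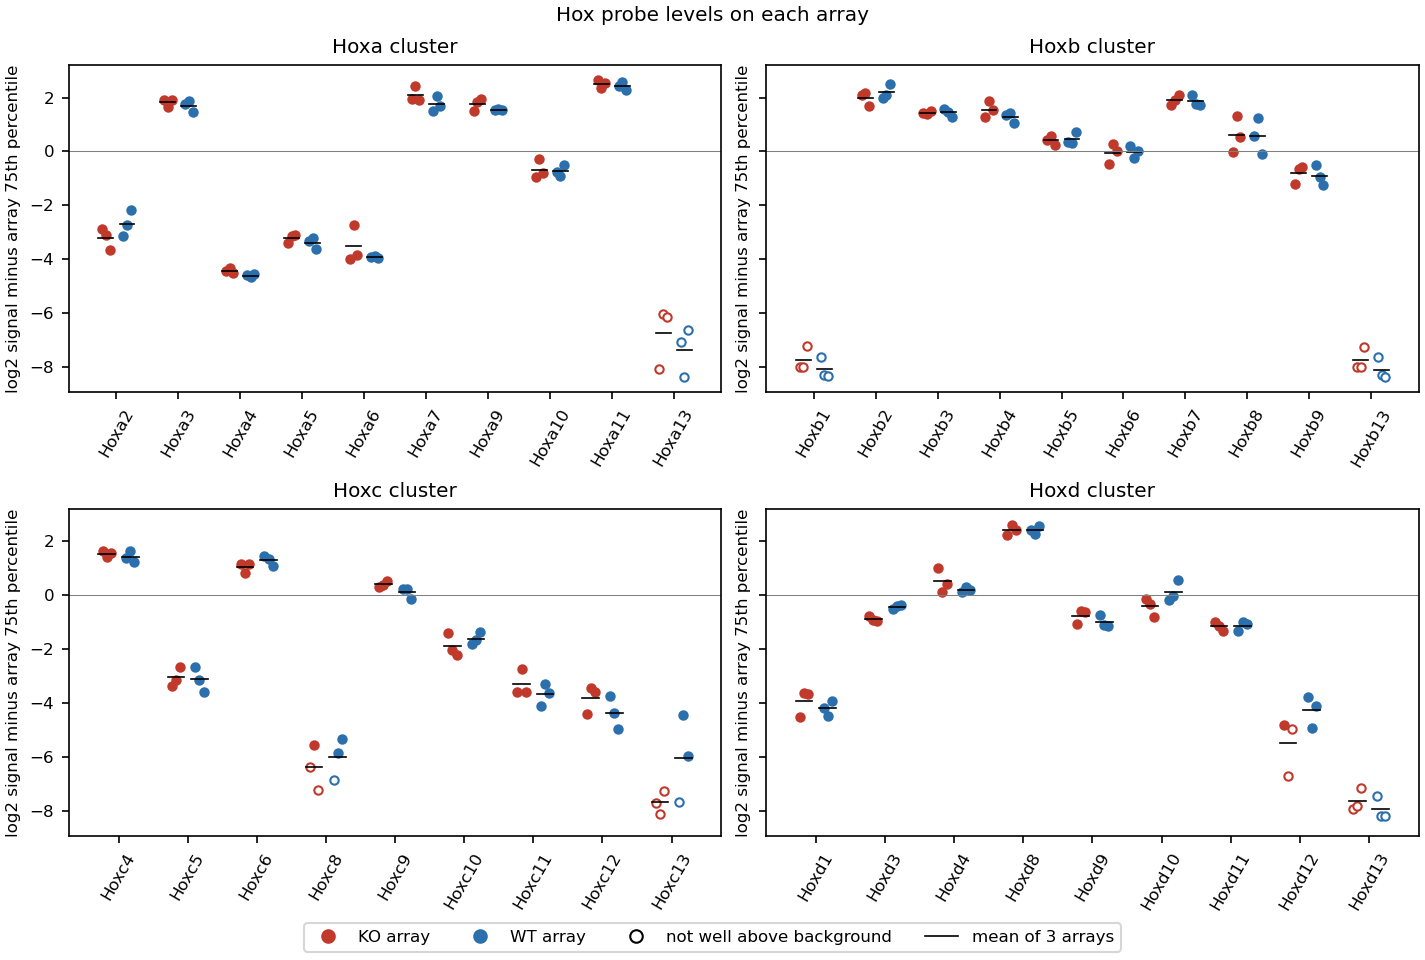
Log2 signal minus the array's 75th percentile (vertical axis) of the probe that stands for each Hox gene shown (horizontal axis, head to tail), 1 panel per cluster, with KO arrays in red on the left and WT arrays in blue on the right of each gene; open points are arrays where the gene was not well above background and bars are means of 3 arrays. Group 13 sits at the bottom of every panel apart from Hoxc13 on 2 WT arrays, and heights are not comparable between genes.

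The comparison of genotypes asks which of these genes differ between KO and WT kidneys. No Hox gene passed limma's test (adjusted p under 0.05 over all features), and 17 of 21207 features did, or 0.0802% (0.0189% higher and 0.0613% lower in KO). The smallest adjusted p of a Hox gene was 0.416, for Hoxd3. At an unadjusted p under 0.05 it was the only member of 33, or 3.03%, against 10.4% of all features (6.15% higher and 4.23% lower in KO). The groups did not overlap for 3 members, which is 9.09% of 33, against 18.2% of all features (10.1% higher and 8.1% lower in KO). These were Hoxa4 and Hoxc9, higher in KO, and Hoxd3, lower in KO. Of the 33 members 21 had a positive difference and 12 a negative one, with a median of 0.09 on the log2 scale against 0.03 over all features. One member, Hoxd12, entered only through the WT arrays. The data bound the differences as well. For 26 of 33 members (78.8%) the 95% interval of the log2 difference lay inside -1 to 1, which is a 2-fold difference either way, against 74.5% of all features. Fitted differences above 0.5 in size were seen for 4 of 33 members, against 3187 of 21207 features. They were Hoxc12, Hoxd10, Hoxa2 and Hoxd12, and the last was above background on 1 of 3 KO arrays only, so its size was not measured.

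**Figure D3:**
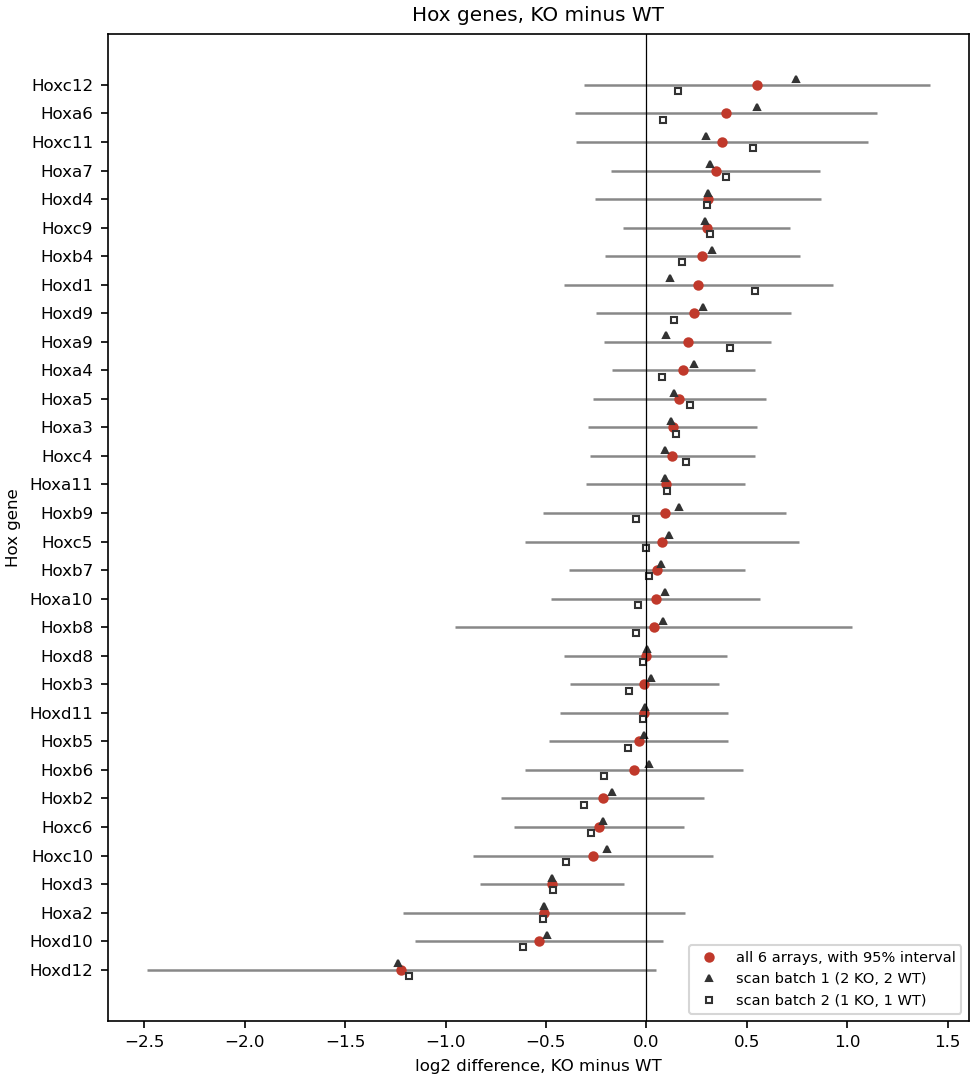
Log2 difference, KO minus WT (horizontal axis), of 32 of the 33 tested Hox genes (vertical axis), with limma's 95% interval as a bar and the differences within scan batch 1 (triangles) and scan batch 2 (squares). The interval of Hoxd3 alone leaves out 0, and that of Hoxd12 is the widest.

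Hoxd3 had the smallest p of the members. Its probe read -0.78, -0.92 and -0.96 on the KO arrays, against -0.50, -0.39 and -0.37 on the WT arrays, so every KO array was below every WT array. The log2 difference was -0.47 ± 0.15 (SE), with a 95% interval of -0.83 to -0.11, -0.47 within scan batch 1 and -0.46 within scan batch 2. It did not pass over all features (limma adjusted p = 0.416, and 0.209 with scan batch as a block), and its size lay between -0.52 and -0.33 over the alternatives run. Hoxd3os1, a noncoding transcript of the same stretch matched by its accession, read -2.45, -2.55 and -2.31 on the KO arrays, against -2.24, -2.32 and -2.44 on the WT arrays. The KO and WT arrays overlapped there (log2 difference -0.10 ± 0.16 (SE)).

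Hoxd12, the last gene of its cluster with a signal, was measured on all WT arrays but on 1 of 3 KO arrays. It read -4.81, -6.72 and -4.94 on the KO arrays, against -3.76, -4.94 and -4.11 on the WT arrays. KO replicates 2 and 3 were not well above background, and WT replicate 2, at -4.94, lay as low as KO replicate 3. The fitted log2 difference, which rests on readings near background, was -1.22 ± 0.54 (SE) with an interval of -2.49 to 0.05 (limma adjusted p = 0.482). Without KO replicate 2 it was -0.61. With normexp and the 75th percentile it was 0.10, where the median of all features was 0.14. With normexp and quantile normalisation it was -0.25, where that median was -0.01. Hoxd10 read -0.14, -0.31 and -0.79 on the KO arrays, against -0.17, -0.03 and 0.57 on the WT arrays. The difference was -0.53 ± 0.26 (SE), -0.49 within scan batch 1 and -0.62 within scan batch 2 (limma adjusted p = 0.511), and the groups met at KO replicate 1 and WT replicate 1. WT replicate 3 was the high array, and the difference was -0.68 without WT replicate 1 and -0.31 without WT replicate 3. Hoxa2, a gene of the hindbrain and second branchial arch, read -2.87, -3.08 and -3.64 on the KO arrays, against -3.13, -2.74 and -2.19 on the WT arrays. The difference was -0.51 ± 0.30 (SE) (limma adjusted p = 0.552), and it was -0.03 with normexp and the 75th percentile. It was -0.26 without WT replicate 3, the high array, and -0.29 without KO replicate 3, the low one. Against WT replicate 3 alone, which is 1 array whose spread is taken to be that of the KO arrays, the differences were -0.52 for Hoxd3, -0.98 for Hoxd10, -1.01 for Hoxa2 and 1.15 for Hoxc12.

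Among the members with a positive difference, Hoxc12 read -4.39, -3.45 and -3.57 on the KO arrays, against -3.73, -4.38 and -4.95 on the WT arrays. Its difference was 0.55 ± 0.37 (SE) (limma adjusted p = 0.584). It was 0.25 without WT replicate 3 and 0.86 without WT replicate 1. Hoxc9 read 0.30, 0.39 and 0.55 on the KO arrays, against 0.23, 0.23 and -0.12 on the WT arrays. The groups did not overlap and the difference was 0.30 ± 0.18 (SE) (0.29 within scan batch 1 and 0.31 within scan batch 2, limma adjusted p = 0.552). Without WT replicate 3 it was 0.18. Hoxa4, at 0.18 ± 0.15 (SE), was the other gene without overlap. Hoxa7 read 1.96, 2.43 and 1.91 on the KO arrays, against 1.52, 2.06 and 1.68 on the WT arrays. The difference was 0.34 ± 0.22 (SE), and 0.18 without KO replicate 2 and 0.50 without WT replicate 2. Hoxa6 read -3.98, -2.75 and -3.83 on the KO arrays, against -3.91, -3.87 and -3.97 on the WT arrays, so KO replicate 2 alone stood above the rest. The difference of 0.40 ± 0.32 (SE) was 0.01 without KO replicate 2 and 0.63 without KO replicate 1.

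Hoxb4, a gene studied in blood stem cells, read 1.28, 1.87 and 1.53 on the KO arrays, against 1.35, 1.41 and 1.07 on the WT arrays. Its difference was 0.28 ± 0.21 (SE), and 0.12 without KO replicate 2 and 0.42 without KO replicate 1. Hoxd4 read 1.00, 0.14 and 0.41 on the KO arrays, against 0.11, 0.31 and 0.21 on the WT arrays. Its difference of 0.31 ± 0.24 (SE) was 0.06 without KO replicate 1 and 0.50 without KO replicate 2. Hoxc6 read 1.16, 0.84 and 1.18 on the KO arrays, against 1.45, 1.33 and 1.11 on the WT arrays. Its difference was -0.24 ± 0.18 (SE), and -0.33 without WT replicate 3 and -0.13 without KO replicate 2. For all of these, limma's adjusted p lay between 0.552 and 0.654.

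The genes of groups 10 and 11, those best known for kidney formation, did not pass the test. Hoxa11 read 2.65, 2.37 and 2.54 on the KO arrays, against 2.44, 2.56 and 2.27 on the WT arrays. Its difference was 0.10 ± 0.17 (SE) with an interval of -0.30 to 0.49. Hoxd11 read -0.97, -1.13 and -1.33 on the KO arrays, against -1.32, -1.01 and -1.08 on the WT arrays. Its difference was -0.01 ± 0.18 (SE) with an interval of -0.43 to 0.41. For this pair the intervals exclude a change beyond 0.5 either way on the log2 scale, and they leave smaller changes possible. Hoxc11 read -3.58, -2.73 and -3.58 on the KO arrays, against -4.11, -3.27 and -3.64 on the WT arrays. The difference was 0.38 ± 0.31 (SE), and 0.09 without KO replicate 2 and 0.58 without WT replicate 2. In group 10, Hoxa10 read -0.93, -0.29 and -0.80 on the KO arrays, against -0.76, -0.91 and -0.50 on the WT arrays, with a difference of 0.05 ± 0.22 (SE). Hoxc10 read -1.39, -2.04 and -2.22 on the KO arrays, against -1.82, -1.67 and -1.37 on the WT arrays, with a difference of -0.27 ± 0.25 (SE). It was -0.51 without KO replicate 1 and -0.10 without KO replicate 3. The 3 genes of group 10 had differences of both signs and overlapping groups. Hoxa11os, the antisense transcript next to Hoxa11, read 1.33, 1.49 and 1.23 on the KO arrays, against 1.18, 1.37 and 1.24 on the WT arrays. Its difference of 0.09 ± 0.16 (SE) was close to that of Hoxa11, and the groups overlapped.

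By cluster the median log2 differences were 0.15 for 10 tested genes of Hoxa, 0.01 for 8 of Hoxb, 0.13 for 7 of Hoxc and -0.01 for 8 of Hoxd. In Hoxa 9 of 10 differences were positive, each smaller than 0.40, and none of the 10 passed even without adjustment. By position the medians were 0.13 for groups 1 to 4, 0.04 for groups 5 to 8 and 0.09 for groups 9 to 13. The spread between arrays was that of an ordinary gene, with a median within-group SD of 0.27 for the 33 members and 0.27 for all features. Where a gene had a second probe above background, the probes did not always agree. The dimmer probe of Hoxa9 gave -0.13 where the brighter gave 0.21, and those of Hoxb3 gave -0.003 and -0.01. Neither probe of Hoxa13 was well above background on any array.

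The highest and lowest values of the members were not spread evenly over the arrays, and neither were those of all features. KO replicate 2 held the highest value of 12 of 33 members (36.4%), among them Hoxa6, Hoxa7, Hoxa10, Hoxb4, Hoxb8 and Hoxc11. It held that of 28.1% of all features, the largest share of any array. WT replicate 3 held the lowest value of 14 members (42.4%), against 24.3% of all features. WT replicate 3 held the highest value of 6 members (18.2%), against 21.9% of all features. Its median deviation from the mean of the 6 arrays was -0.22 over the Hoxa members, -0.17 over Hoxb, -0.25 over Hoxc and 0.15 over Hoxd. In markers of kidney compartments KO replicate 2 stood apart. The summed level of the 9 markers of the ureteric bud and collecting duct was 33.4 on KO replicate 2, with 18.9 and 19.6 on the other KO arrays and 13.8 to 20.4 on the WT arrays, in units of each array's 75th percentile. WT replicate 3, at 17.9, lay within the range of the other WT arrays. The sum of the 8 nephron epithelium markers was 37.8 on KO replicate 2, with 57.8 and 55.7 on the other KO arrays and 53.7 to 60.2 on the WT arrays. All 8 renal stroma markers and 6 of 7 nephron progenitor markers had a negative difference between KO and WT, with none past the adjusted threshold. The median log2 differences were -0.30 and -0.64. The ureteric bud and collecting duct list had 5 positive and 4 negative differences with a median of 0.40, and none of these passed either. The stroma sum was 238, 143 and 145 on the KO arrays, against 144, 218 and 207 on the WT arrays. Such sums of linear levels rest mostly on the brightest probes and do not weigh the markers equally. On KO replicate 1 the log2 levels of Col1a1 and Col3a1 were 7.02 and 6.32, with Dcn next at 3.83. The brightest probe of the ureteric bud list was that of Gata3, at 4.50 on KO replicate 2, with Calb1 next at 2.40. All 4 macrophage markers had a negative difference too. That of Cx3cr1, a chemokine receptor, was -1.58 ± 0.21 (SE), with a limma adjusted p of 0.0604. With scan batch as a block the limma adjusted p was 0.0349, which passes the threshold. With normexp and the 75th percentile the difference of Cx3cr1 was -0.63. The other macrophage markers then stood at -0.05 for C1qa, -0.42 for Adgre1 and -0.16 for Csf1r. What part these compartments have in the Hox values was not tested.

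**Figure D4:**
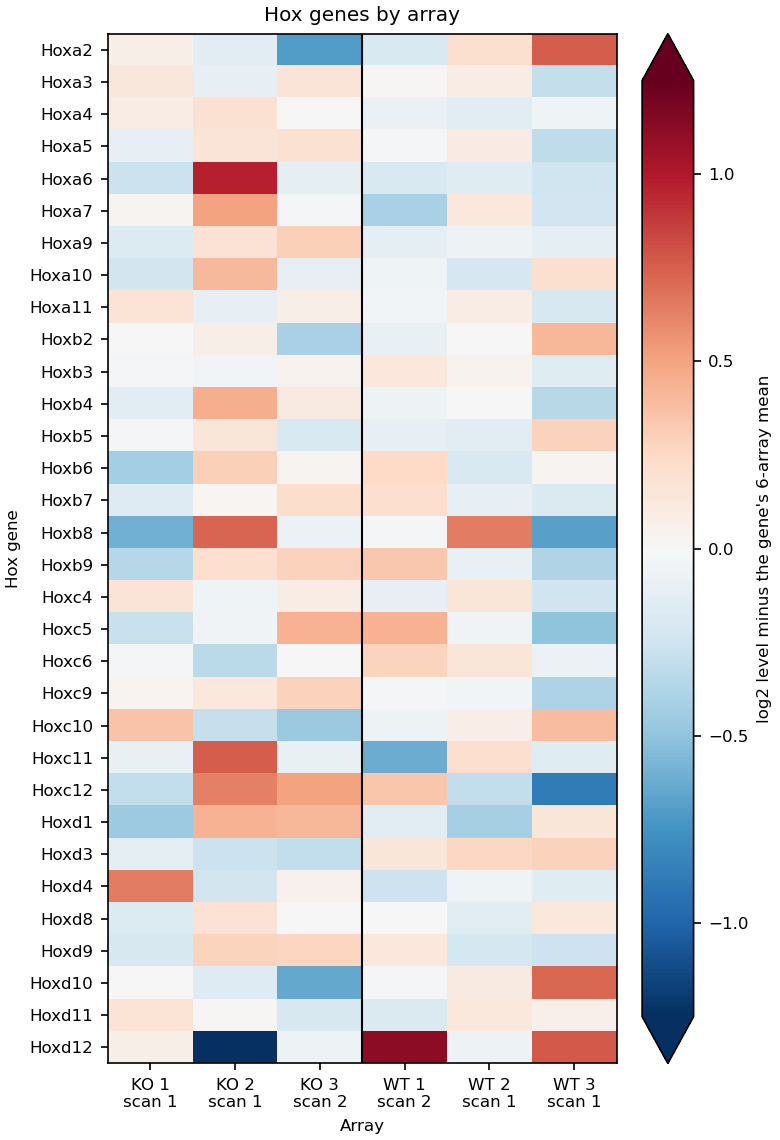
Each of 32 of the 33 tested Hox genes (rows) on each array (columns, KO left of the line and WT right of it, with the scan batch below): the colour is the log2 level minus the gene's mean over 6 arrays. KO replicate 2 holds many of the highest values, Hoxa6 and Hoxc11 among them, WT replicate 3 many of the lowest, and the widest range is that of Hoxd12, which was not above background on KO replicates 2 and 3.

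The difference between scan batches was fitted as a contrast chosen after seeing the data. With genotype in the model, 0 of 33 members differed between the scan batches at an adjusted p under 0.05 in limma, where 2001 of 21207 features, or 9.44%, did. At an unadjusted p under 0.05 there were 3 members (9.09%), against 26.8% of all features. Hoxa2 and Hoxd10 were lower in scan batch 2, by -0.67 ± 0.19 (SE) and -0.50 ± 0.20 (SE) on the log2 scale, and Hoxc5 was higher by 0.66 ± 0.18 (SE). With scan batch as a block in the comparison of genotypes 62 features passed, or 0.292%, and no Hox gene was among them, with 4 members (12.1%) at an unadjusted p under 0.05, against 17.7% of all features.

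The genes that work with Hox proteins were also without a call. The lists used here were chosen with earlier results of these data known. Of 9 TALE cofactors (Pbx, Meis and Pknox genes, whose proteins bind DNA jointly with Hox proteins), 0 passed in limma and 0 had an unadjusted p under 0.05, with a median log2 difference of -0.11. Pbx2 read -0.84, -0.45 and -0.71 on the KO arrays, against -0.28, -0.55 and -0.09 on the WT arrays. Its difference was -0.36 ± 0.19 (SE). Pknox2 differed by -0.52 ± 0.34 (SE), and by -0.86 without KO replicate 1 and -0.17 without KO replicate 2. Pbx3 differed by -0.29 ± 0.22 (SE), and by -0.44 without WT replicate 2 and -0.12 without KO replicate 2. Meis1 differed by -0.21 ± 0.25 (SE), with its lowest level, 1.90, on KO replicate 2.

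Of the 5 genes that act with group 11 or are reported as its targets in the kidney, none passed, and 0 had an unadjusted p under 0.05. Six2, the transcription factor that keeps nephron progenitors undifferentiated, read 0.78, -0.06 and 0.85 on the KO arrays, against 1.56, 0.65 and 1.36 on the WT arrays. Its difference was -0.67 ± 0.33 (SE) (limma adjusted p = 0.511), and -0.38 without KO replicate 2. Eya1, a partner of group 11 proteins, read 2.15, 2.61 and 3.34 on the KO arrays, against 2.72, 2.16 and 1.18 on the WT arrays. Its difference was 0.68 ± 0.44 (SE) (limma adjusted p = 0.576), and 0.26 without WT replicate 3 and 1.03 without WT replicate 1. The targets Gdnf and Itga8 differed by -0.18 ± 0.23 (SE) and -0.24 ± 0.26 (SE), and Pax2, the third partner, by 0.26 ± 0.27 (SE), which was 0.02 without KO replicate 2 and 0.45 without KO replicate 3. Six2 and Eya1 thus lay on opposite sides of 0, and the groups overlapped for both.

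Of the chromatin regulators that keep Hox genes silent or active, none passed the threshold in limma. All 18 Polycomb genes were tested, with 7 positive and 11 negative differences and a median of -0.10. At an unadjusted p under 0.05 in limma 1 was higher and 1 lower in KO (11.1%, against 10.4% of all features). Ezh1, a histone methyltransferase of Polycomb repressive complex 2, read 2.56, 2.77 and 2.92 on the KO arrays, against 2.36, 2.30 and 1.81 on the WT arrays. The groups did not overlap, and the difference was 0.59 ± 0.21 (SE) (limma adjusted p = 0.434). The mean of its probes gave 0.35. Its paralogue Ezh2 differed by -0.20 ± 0.20 (SE). Cbx7 differed by 0.68 ± 0.34 (SE), and by 0.37 without KO replicate 2. Of 8 Trithorax genes and H3K27 demethylases tested 0 passed without adjustment. Rbbp5 came nearest, at -0.41 ± 0.20 (SE) with groups that did not overlap, or -0.06 with normexp and the 75th percentile and -0.23 without WT replicate 3. Kdm6a differed by -0.24 ± 0.19 (SE), or -0.03 under the normexp correction. Men1 differed by -0.19 ± 0.20 (SE), and by -0.30 without KO replicate 3 and -0.06 without KO replicate 1.

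Of 18 genes of retinoic acid signalling and the Cdx family, upstream regulators of Hox genes in the embryo, 15 were tested and none passed in limma. Cyp26b1, which breaks down retinoic acid, read 0.64, 0.49 and 0.89 on the KO arrays, against 0.34, -0.04 and 0.09 on the WT arrays. The groups did not overlap, as for 18.2% of all features, and the difference was 0.54 ± 0.19 (SE) (limma adjusted p = 0.428). It was the only one of 15 at an unadjusted p under 0.05 in limma (6.67%, against 10.4% of all features). The receptor gene Rara differed by 0.19 ± 0.18 (SE), and by 0.03 with the mean of its probes. Rarg differed by -0.22 ± 0.20 (SE), and by -0.39 without WT replicate 3 and -0.13 without WT replicate 1. Cdx2, Cdx4 and Cyp26c1 were above background on no array. Of 13 genes next to the clusters 10 were tested. Evx1 and Evx2, which lie beyond Hoxa13 and Hoxd13, were above background on no array, as those Hox genes were not. Snx11, near the head end of Hoxb, read 1.08, 1.54 and 1.28 on the KO arrays, against 0.78, 0.93 and 0.55 on the WT arrays. The groups did not overlap, and the difference was 0.55 ± 0.19 (SE) (limma adjusted p = 0.437). Smug1 differed by -0.26 ± 0.20 (SE), and by -0.41 without WT replicate 2 and -0.10 without WT replicate 3. Hibadh differed by -0.19 ± 0.20 (SE), and by -0.32 without WT replicate 2 and -0.07 without KO replicate 2. The median of the neighbours was -0.11.

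**Figure D5:**
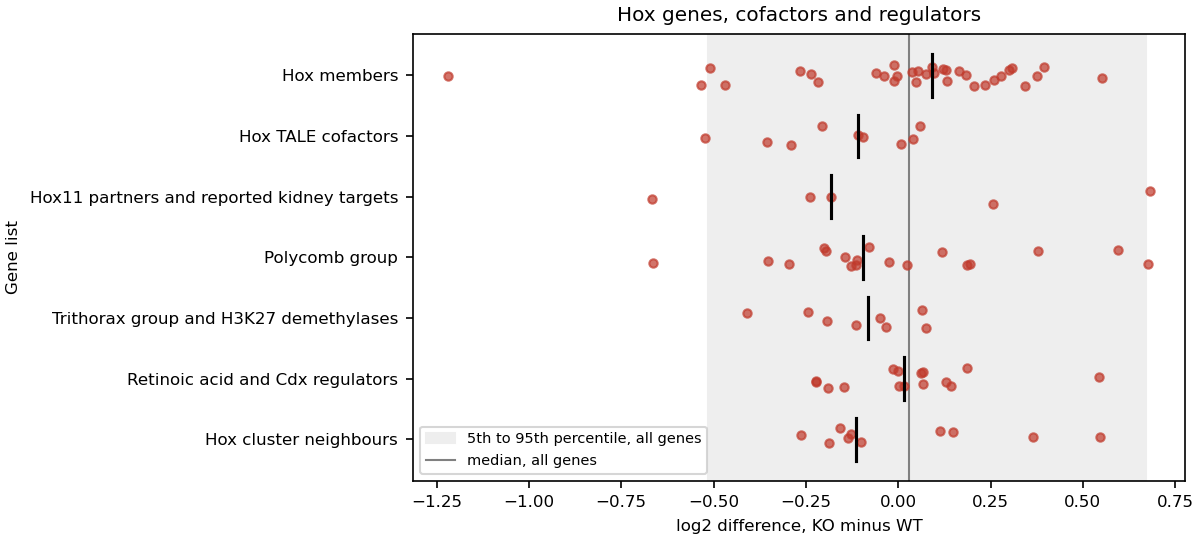
Log2 difference, KO minus WT (horizontal axis), of each tested member of the Hox set and of 6 lists of cofactors, targets, regulators and neighbours (rows); black ticks are list medians, the grey line is the median of all features and the grey band their 5th to 95th percentile. The medians lie between -0.18 and 0.09, and the point farthest from 0 is Hoxd12, which was above background on 1 of 3 KO arrays.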

How the data were processed

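Each of 6 newborns gave 1 single-colour array, per the labels. The deposited intensity values come from Agilent Feature Extraction on a linear scale with background subtracted and no scaling across arrays, per the file headers. Those name version 11.0.1.1, while the submitters' processing notes name 9.1. From them 1377 control spots of 44397 per array and outlier spots were removed, log2 of the processed signal minus its 75th percentile was taken, and repeated spots were averaged. A RefSeq table of GRCm38.p6 named 27234 of 39429 probes (69.1%) by accession. The array design names mm9, so no position of a probe is given.

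Testing required a probe to be well above background throughout the KO or the WT group, and the brightest of a gene's passing probes was used. Differences were tested two-sided by limma 3.58.1 under R 4.3.3 (lmFit, then eBayes), with Benjamini-Hochberg adjustment over 21207 features at 0.05. In simulated data on 21207 features, log2 changes of 1 were recovered in 25.5%, of 2 in 76.9% and of 3 in 90.3%. Alternatives were other scalings, normexp with an offset of 50 on median signal and median background (no mean signal was used), filters on dim probes, the mean of probes, variance models, blocks and left-out arrays. The contrast between scan batches was added after seeing the data. The members and lists were chosen with earlier results of these data known. The rule for named genes allowed all Hox genes and Usp10, gave full values for the 12 Hox genes with the smallest p and for groups 10 and 11, and up to 3 members of each list with the smallest p or past 0.05. Members named outside it were chosen after their values were seen. Some members are not reported here by name or in plots of named genes, and the counts and medians include them.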

Additional observations from a re-analysis of the deposited data

How the results depend on the processing

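The count of 0 Hox genes past the threshold in limma was found under all 18 alternatives run with a test, 1 of which sets WT replicate 3 alone against KO and takes its spread from the KO arrays, where the smallest adjusted p of a Hox gene lay between 0.209 and 0.920. The count over all features was 17. It was 27 with normexp and the 75th percentile, 45 with an intensity trend and robust variance, 36 with array weights, 62 with the scan-date block, 8 with the mean of probes and 1 with probes well above background on all 6 arrays. It was 0 with normexp and quantile normalisation (2245 features at an unadjusted p under 0.05), with no filter on dim probes (2052) and against WT replicate 3 alone (2009), and 0 to 30 with arrays left out in turn, the 30 without KO replicate 3 and 0 without each of the other 5. The median of the Hox genes was 0.09, 0.22 against WT replicate 3 alone and 0.02 to 0.16 with arrays left out in turn. Normexp with the 75th percentile set the median of all features to 0.14, where that of the Hox genes was 0.07. The signs of the Hox genes were not all steady. Of 33 members, 25 kept the sign of the main fit without WT replicate 3 and 27 without KO replicate 3. Within scan batch 2, 29 kept it. Among the genes followed by name under each alternative, the following signs turned. Hoxd11 was 0.014 with quantile normalisation, 0.039 with normexp and the 75th percentile, 0.0043 with array weights and -0.10 to 0.084 with arrays left out. Hoxa10 was -0.14 to 0.18 with arrays left out, -0.18 against WT replicate 3 alone and -0.043 within scan batch 2. With normexp and the 75th percentile Hoxd12 was 0.10 and Hoxd3os1 0.11. Against WT replicate 3 alone Rarg was 0.10, Men1 0.0055 and Hoxd3os1 0.00073. The cause was not tested. The replicate block (the replicate number as a block) gave 0 features, with 1609 at an unadjusted p under 0.05. Same-numbered arrays deviated from their group means with correlations across genes of -0.40, 0.48 and -0.60, so the numbers did not pair them. Among same-numbered arrays only those numbered 2 were each other's best match. The highest correlation of a KO with a WT array was 0.89, for KO replicate 3 and WT replicate 1, the arrays of scan batch 2. That of KO replicate 1 and WT replicate 3 was 0.40. A probe near background gives no measure of a change.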
